A study of Mus musculus with 24 samples.

Results

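Genes of glycolysis and of the response to low oxygen were followed as 1 list of 35 on mouse Affymetrix arrays, and 34 of them were measured among 18194 genes. Each gene was read from the probe set that maps to its symbol alone and has the highest mean over the 24 arrays, and Gpi1 was not analysed here. The 8 groups of 3 arrays were MEFs with MyoD in batch 1 and untransduced MEFs of batch 1, MEFs labelled NeuroD2 and untransduced MEFs of batch 2, P19 cells with MyoD and untransduced P19 cells of batch 1, and P19 cells with NeuroD2 and untransduced P19 cells of batch 3. All MEFs, controls included, are mouse embryonic fibroblasts derived from Myod-/-/Myf5-/- mice, which lack these early factors of the muscle lineage. P19 is a single mouse embryonal carcinoma line with properties of pluripotent cells. MyoD, a basic helix-loop-helix (bHLH) factor of skeletal muscle, and NeuroD2, a related factor of neurons, were delivered by lentivirus in medium with polybrene, and controls received no virus. Transduced P19 cells were collected at 72 hours. The medium of MEFs with MyoD was changed at 48 hours to one with horse serum, insulin and transferrin, and these cells were harvested 36 to 40 hours later, so virus, medium and MyoD cannot be told apart in them. For MEFs labelled NeuroD2 and for controls the sources used here give no harvest time. Nothing in the labels tells whether the 3 arrays of a group came from separate cultures, so p-values measure the spread between these samples, which may be technical, and the number of arrays limits the precision.

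Glycolysis splits glucose into pyruvate, and cells that turn pyruvate into lactate can run it without oxygen. When oxygen falls, prolyl hydroxylases such as Egln1 and Egln3 no longer mark the alpha subunits of the hypoxia-inducible factor (HIF) for destruction, and HIF with its partner Arnt binds a short core, ACGTG or GCGTG, near its targets. Those targets include most glycolytic enzymes, the glucose and lactate transporters, Pdk1 and feedback genes such as Egln3 itself. Pdk1 is a kinase that inhibits the pyruvate dehydrogenase complex, which uses pyruvate in mitochondria. In skeletal muscle glycolysis fuels contraction, and muscle uses several isozymes of its own.

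The stretches before an annotated transcript start are shown for the 3 members with a window that differed most between P19 batches (Egln3, Slc16a3 and Ankrd37) and for Hk2 and Aldoa, which moved in opposite directions in the MEF comparisons. They were chosen after the values were seen. They are the 250 bases before a transcript start annotated in RefSeq on GRCm38.p6, read 5′ to 3′ on the gene's strand. Egln3 lies at chr12:54203875-54204124 (minus strand), Slc16a3 at chr11:120948817-120949066 (plus strand), Ankrd37 at chr8:45999851-46000100 (minus strand), Hk2 at chr6:82774455-82774704 (minus strand) and Aldoa, of which 1 of 3 windows is shown, at chr7:126799255-126799504 (minus strand). The windows of Egln3 and Hk2 end where the annotated gene begins, whereas those of Slc16a3, Ankrd37 and Aldoa lie within the annotated gene span, before a start inside it. Another Aldoa window, at chr7:126800448-126800697, held no ACGTG or GCGTG, and the remaining one overlaps the window shown. Capitals mark ACGTG or GCGTG on either strand, so CACGT and CACGC are matches on the other strand, and neighbouring matches that overlap run together.
Egln3: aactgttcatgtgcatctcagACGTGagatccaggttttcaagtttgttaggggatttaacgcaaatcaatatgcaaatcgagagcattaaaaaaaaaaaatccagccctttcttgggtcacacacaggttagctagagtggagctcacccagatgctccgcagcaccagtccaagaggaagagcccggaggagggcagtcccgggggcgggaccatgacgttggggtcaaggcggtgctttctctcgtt
Slc16a3: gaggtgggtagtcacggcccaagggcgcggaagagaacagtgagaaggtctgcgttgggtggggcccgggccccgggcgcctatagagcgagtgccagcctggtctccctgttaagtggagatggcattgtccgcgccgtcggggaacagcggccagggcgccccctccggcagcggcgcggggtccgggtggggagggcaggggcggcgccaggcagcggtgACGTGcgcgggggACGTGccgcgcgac
Ankrd37: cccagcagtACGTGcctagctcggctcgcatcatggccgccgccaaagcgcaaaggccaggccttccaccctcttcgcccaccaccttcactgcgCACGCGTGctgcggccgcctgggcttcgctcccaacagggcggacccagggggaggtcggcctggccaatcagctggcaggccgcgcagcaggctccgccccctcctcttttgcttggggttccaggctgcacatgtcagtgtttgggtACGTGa
Hk2: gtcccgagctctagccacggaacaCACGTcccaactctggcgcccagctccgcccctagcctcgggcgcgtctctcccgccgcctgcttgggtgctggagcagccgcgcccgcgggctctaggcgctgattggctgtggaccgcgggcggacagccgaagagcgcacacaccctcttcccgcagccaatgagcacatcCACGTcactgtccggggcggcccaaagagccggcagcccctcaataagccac
Aldoa: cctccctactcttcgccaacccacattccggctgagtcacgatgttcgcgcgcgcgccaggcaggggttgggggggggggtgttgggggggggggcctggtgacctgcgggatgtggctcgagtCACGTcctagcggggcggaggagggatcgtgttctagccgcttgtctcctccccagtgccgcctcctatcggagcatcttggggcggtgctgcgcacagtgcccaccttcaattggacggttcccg
Windows were matched by symbol for 33 of the 35 members, which leaves Slc2a3 and Ndrg1. An ACGTG or GCGTG stood in at least 1 window of 31 of the 33 members (93.9%), and of 41.5% of the 27025 genes in the table. For ACGTG alone the shares were 60.6% of members and 18.5% of all genes, and for GCGTG alone 69.7% and 30.9%. Both cores hold a CG, and member windows had a median GC content of 62.2%, against 52.4% over all windows. Among windows with a GC content between 55.8% and 68.2%, the interquartile range of the member windows, 86.4% of 22 member windows and 55.9% of all 8905 windows held a core. The core CAGCTG, an E-box that MyoD binds, stood in a window of 12.1% of members and 14.7% of all genes, and CAGATG, bound by neurogenic factors of this family, of 18.2% and 16.3%, on either strand in each case. A match in these letters is a description and not a site shown to be bound.

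Values are log2 signal intensities as deposited. Lower quartiles of 4.47 to 4.58 and upper quartiles of 8.23 to 8.39 were found on 23 arrays, whereas untransduced P19 replicate 2 of batch 1 had 4.79 and 7.63. Its median member level was 9.09, against 9.87 and 9.9 on the other arrays of its group, and its mean correlation across genes with them was 0.919. It was kept, and counts are also given without it, since it also widens the spread that all groups share in the fit. On 1 of 2 probe sets Myod1 averaged 12.73 ± 0.107 in MEFs with MyoD and 7.18 ± 0.035 in their controls, and 9.66 ± 0.0818 and 5.72 ± 0.288 in P19 cells (SD, n = 3). The other probe set did not rise, at 3.77 against 3.72 in MEFs and 3.63 against 3.54 in P19 cells. The samples with MyoD are nevertheless described in 1 label field as neuronally differentiated. With NeuroD2, P19 cells had higher Neurod2 signal on 1 of 3 probe sets (7.68 ± 0.423, against 5.98 ± 0.13 in controls) whereas 0 of 3 rose in MEFs labelled NeuroD2, which carry that wording throughout. The 5 pluripotency markers averaged at least 10.02 on each P19 array and at most 4.77 on each MEF array, with Dppa5a near its MEF level in both, and the 5 fibroblast markers at least 11.13 on MEF arrays and at most 7.55 on P19 arrays. Tests were contrasts of a limma model over all 24 arrays, and a gene was called at a Benjamini-Hochberg adjusted p under 0.05 over the 18194 genes.

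The members' largest shift in 1 direction lay between P19 controls of different batches. In untransduced P19 cells of batch 3, 24 of 34 members were higher than in batch 1 and 0 were lower, against 14.1% of all genes called in either direction and 10.6% called higher. The median member difference was 0.99 on the log2 scale, against 0.025 over all genes. Members for oxygen sensing, glucose breakdown, lactate export, control of flux and non-glycolytic hypoxia responses were all among those that rose.

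The members of the oxygen-sensing loop rose together, 3 of 3. Egln3, a HIF prolyl hydroxylase that is itself a HIF target, had 10.07, 9.44 and 9.59 in untransduced P19 cells of batch 3, against 7.52, 5.77 and 7.63 in batch 1. The groups did not overlap, and the lowest value came from the array that stood apart. The difference was 2.73 (95% interval 2.02 to 3.44, 6.63-fold, limma adjusted p = 2.58e-05) and 2.12 without that array. Ankrd37, a HIF target that codes for an ankyrin repeat protein, had 9.12, 7.99 and 8.07 in batch 3, against 5.62, 5.86 and 6.01 in batch 1. Here the array that stood apart lay between its group mates, and the difference of 2.56 (adjusted p = 4.45e-06) was 2.58 without it. Egln1, the main HIF prolyl hydroxylase in most tissues, was higher by 1.28 (adjusted p = 0.000365).

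Among transporters, Slc16a3 (MCT4), which exports lactate, had 12.37, 12.33 and 12.15 in batch 3, against 9.74, 9.53 and 9.56 in batch 1. All values of each batch lay within a narrow band, and the difference was 2.68 (6.39-fold, adjusted p = 1.87e-08). Slc2a1 (GLUT1), the widespread glucose transporter, was higher by 0.58 (adjusted p = 0.029) with overlapping groups, and its call ended without the array that stood apart (0.34, adjusted p = 0.0977). Slc2a3 (GLUT3), a high-affinity glucose transporter, and Slc16a1 (MCT1), a lactate and pyruvate carrier, differed by 0.39 and 0.23 and were not called.

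Of the upper steps of glycolysis, 5 of 7 measured members rose. Pfkl, the liver-type phosphofructokinase, had 12.64, 12.39 and 12.67 in batch 3, against 10.8, 9.9 and 10.72 in batch 1, a difference of 2.1 (adjusted p = 4.26e-08). Aldoc and Aldoa, aldolase isozymes, differed by 1.87 and 1.43 and Tpi1, triose phosphate isomerase, by 1.21. Hk1, a hexokinase, differed by 1.03 with the array that stood apart and 0.53 without it (adjusted p = 0.00872 and 0.000325). Hk2, the inducible hexokinase, had 11.66, 12.03 and 12.1 in batch 3 and 11.95, 11.36 and 11.94 in batch 1, and was not called (0.18, 95% interval -0.14 to 0.5). Pfkp, the platelet-type phosphofructokinase, was not called either (0.65, adjusted p = 0.0547).

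Of the lower steps, 4 of 6 rose: Ldha, which makes lactate, by 1.15, Pkm, pyruvate kinase, by 0.81, Pgk1, phosphoglycerate kinase, by 0.77 and Pgam1, phosphoglycerate mutase, by 0.7, with limma adjusted p between 4.7e-05 and 0.0017. The groups did not overlap in any of them. Batch 3 controls lay wholly above those of batch 1 in 24 of 34 members and in 2450 of 18194 genes. They lay wholly below in 0 members and 1475 genes. Gapdh was read from an Affymetrix control probe set at the 5′ end of its transcript, at 14.59, 14.48 and 14.5 in batch 3 and 14.49, 14.19 and 14.47 in batch 1 (0.14, adjusted p = 0.246). The 3′ minus 5′ difference of the Gapdh control probe sets lay between -0.13 and -0.1 in untransduced P19 cells of batch 3 and between -0.21 and -0.17 in batch 1. That of Actb lay between 0.21 and 0.26 in batch 3, against 0.35 and 0.41 in batch 1. Neither range overlapped between the batches, and their part in the result was not tested. Ldhb, the lactate dehydrogenase subunit favouring pyruvate formation, spread from 10.27 to 11.68 in batch 3 and differed by 0.13. Among the regulators of flux, Pdk1 rose by 1.74 (adjusted p = 1.57e-06) and Pfkfb3, which makes the activator of phosphofructokinase, by 1.55 (adjusted p = 0.000315). A second Pfkfb3 probe set differed by -0.11 and was not called. Pfkfb4, of the same enzyme family, differed by -0.2 and was not called.

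Outside glycolysis 8 of 11 hypoxia targets rose. Ndrg1, a stress-response gene induced by low oxygen, had 10.2, 9.81 and 9.98 in untransduced P19 cells of batch 3, against 7.75, 7.49 and 7.81 in batch 1. Its difference of 2.31 (4.95-fold) had the smallest adjusted p of the members, 1.49e-10. P4ha1, which hydroxylates proline in collagen, had 10.11, 9.93 and 9.97, against 8.58, 7.44 and 8.53 in batch 1 (1.82, adjusted p = 3.32e-06). Bnip3, a mitophagy receptor, had 11.79, 11.81 and 11.8, against 10.48, 9.4 and 10.47 (1.68, adjusted p = 1.62e-05). The other 5 called were Mxi1, a Myc antagonist (1.1), Higd1a, a mitochondrial protein (1.09), the histone demethylase Kdm3a (0.95), P4ha2 (0.93) and Ddit4, an mTOR inhibitor (0.8). Without the array that stood apart Mxi1, Kdm3a and P4ha2 were at 0.59, 0.45 and 0.36 and still called. Vegfa, the angiogenic growth factor, Adm, the vasodilator adrenomedullin, and Car9, a carbonic anhydrase often used as a hypoxia marker, were not called (0.09, -0.26 and -0.23).

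The same order was seen across both P19 groups of each batch. In 22 of 34 members all 6 P19 arrays of batch 3, with NeuroD2 or untransduced, lay above all 6 of batch 1, with MyoD or untransduced, as in 6.09% of all genes, and in 0 members did they lie below. Pfkl, for example, ranged from 12.31 to 12.67 on the 6 arrays of batch 3 and from 9.9 to 10.8 on the 6 of batch 1. Leaving out the array that stood apart, 23 members were higher and 0 lower (17.4% of all genes called), with a median of 0.57. Fitted on the 6 control arrays alone, only Slc16a3 of the members was called (adjusted p = 0.0311; 0.0055% of all genes), and without the odd array 13 members were higher (1.18% of all genes). The sources used here do not tell what else differed between the batches, and batch and culture cannot be told apart.

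**Figure D1:**
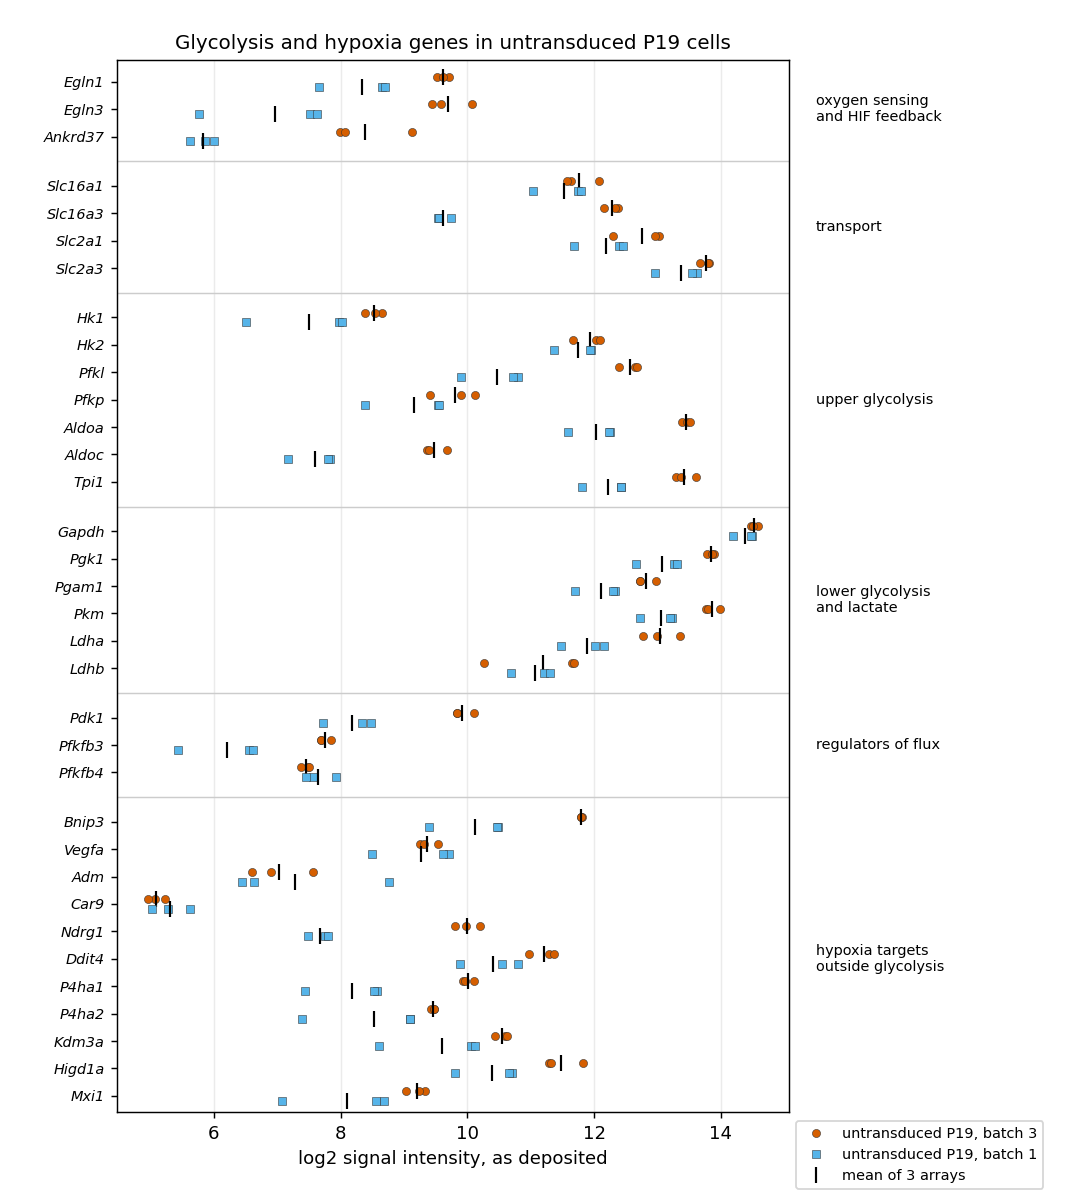
Log2 signal intensity of the 34 measured members in untransduced P19 cells of batch 3 (orange circles) and batch 1 (blue squares), 1 symbol per array, with the mean of 3 arrays as a black bar and members grouped by role. Batch 3 lies to the right for 24 called members, and the lone blue square far to the left in many rows is replicate 2 of batch 1.

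Related lists were counted in the same comparison of P19 batches. Of 26 other hypoxia targets 12 were higher and 3 lower (median 0.54), led by Stc1, a secreted glycoprotein (2.21), Bhlhe40, a bHLH repressor (1.78), Rora, a nuclear receptor (1.46), and Fam162a, a mitochondrial protein (1.29). The counts were 8 and 1 without the array that stood apart. Of 11 HIF regulators 3 were higher, Arnt (0.96), Epas1, a HIF alpha subunit (0.82), and Hif3a (0.6), but 1 was higher and 1 lower without that array. Of 13 other glycolytic enzymes 4 were higher, with Eno2, the neuronal enolase, at 2.41, Adpgk at 1.49, Pfkm at 0.77 and Ldhc at 0.4. Glycogen metabolism had 2 higher and 1 lower of 10, transport 3 of 8 higher, the pentose phosphate pathway 2 of 7 higher, the pyruvate dehydrogenase complex 4 of 10 higher, the tricarboxylic acid cycle 4 of 14 higher, and gluconeogenesis 1 higher and 1 lower of 7. Without that array the pyruvate dehydrogenase and tricarboxylic acid cycle lists each had 2 higher and 1 lower, and gluconeogenesis had 0 calls. Of the integrated stress response 0 of 9 and of mitotic genes 0 of 7 were called. The pluripotency markers averaged 10.93 to 11.02 on the arrays of batch 3 and 10.02 to 10.89 on those of batch 1, and their part in the result was not tested.

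Between cell types, untransduced MEFs of batch 1 differed from untransduced P19 cells of batch 1 in 19 of 34 members, 8 higher and 11 lower, against 51.7% of all genes called. The median member difference was -0.18, against -0.121 over all genes, so in this fit the share and the direction were near those of genes at large. This did not hold in every fit. It held with each array shifted to the same median, at 8 higher and 8 lower, against 48.3% of all genes. With only the arrays compared 7 were higher and 7 lower, against 27.9%. In the fits given next, by contrast, a larger share of members was called and most of those were lower. Without the array that stood apart 8 were higher and 19 lower, against 55.4% of all genes, and after a second quantile normalization 8 and 17, against 55.1%. This comparison shares its P19 controls with the comparison of P19 batches.

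All 4 transporters, which carry glucose or lactate, were lower in MEFs. Slc2a3 had 4.78, 4.91 and 4.71 in MEFs, against 13.62, 12.96 and 13.55 in P19 cells. The MEF values sat near the lower quartile of all probe sets on these arrays, where signals are compressed, and the difference was -8.57 (adjusted p = 1.03e-19), the widest of any member. Slc16a3 had 5.9, 5.84 and 5.99 in MEFs, against 9.74, 9.53 and 9.56 in P19 cells (-3.7, adjusted p = 8.08e-13). Slc2a1 and Slc16a1 were lower too (-1.77 and -1.75).

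The 2 hexokinases differed in opposite directions. Hk2 had 8.41, 8.56 and 8.7 in MEFs, against 11.95, 11.36 and 11.94 in P19 cells (-3.19, adjusted p = 3.51e-13), whereas Hk1 had 10.03, 10.05 and 9.92 in MEFs, against 7.97, 6.51 and 8.03 in P19 cells (2.5, adjusted p = 2.11e-08). Neither pair of groups overlapped. Aldoc was lower at -2.4, Ldhb by -1.27, Pfkp by -0.76, Pgam1 by -0.45 and Gapdh by -0.31, while Aldoa, Tpi1, Pgk1, Pkm, Ldha and Pfkl, with differences between -0.34 and 0.22, were not called. The regulators Pdk1, Pfkfb3 and Pfkfb4 were not called. Of the hypoxia targets outside glycolysis 6 were higher in MEFs, among them Adm, with 10.82, 10.89 and 10.9 in MEFs, against 6.45, 8.77 and 6.63 in P19 cells. Its difference was 3.58, and 4.33 without the array that gave 8.77. Ndrg1 had 10.47, 10.47 and 10.53 in MEFs, against 7.75, 7.49 and 7.81 (2.8, adjusted p = 3.18e-14). P4ha1 and P4ha2, of collagen synthesis, were higher by 2.36 and 1.58, Mxi1 by 1.49, Egln1 by 1.25 and Kdm3a by 0.91, and Ddit4 was lower at -0.49 with overlapping groups. With that P19 array left out, P4ha2 was at 1.01, Mxi1 at 0.98, Kdm3a at 0.42, Pfkp at -1.15 and Ddit4 at -0.75, each still called.

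The cell-type difference depended on the batch of the controls. Set between MEFs of batch 2 and P19 cells of batch 3, where batch and cell type cannot be told apart, 6 members were higher and 23 lower, against 47.3% of all genes called. Ankrd37 (-1.5), Pdk1 (-1.68), Aldoa (-0.96), Tpi1 (-0.96) and Pgk1 (-0.65), which were positive and not called within batch 1, were then called lower, and Kdm3a, called higher within batch 1, was at -0.17 with no call. Among related lists in batch 1, all 7 mitotic genes and 7 of 9 integrated stress genes were lower in MEFs and 1 of 9 was higher. Of 26 other hypoxia targets 9 were higher and 7 lower, with Lox, the collagen cross-linking enzyme, at 6.34 and Stc2, a secreted glycoprotein, at -3.18. Of these targets 9 were higher and 12 lower without the array that stood apart. Mpc1, a subunit of the mitochondrial pyruvate carrier, was higher by 3.45, and Pdk4, of the same kinase family as Pdk1, by 2.11.

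**Figure D2:**
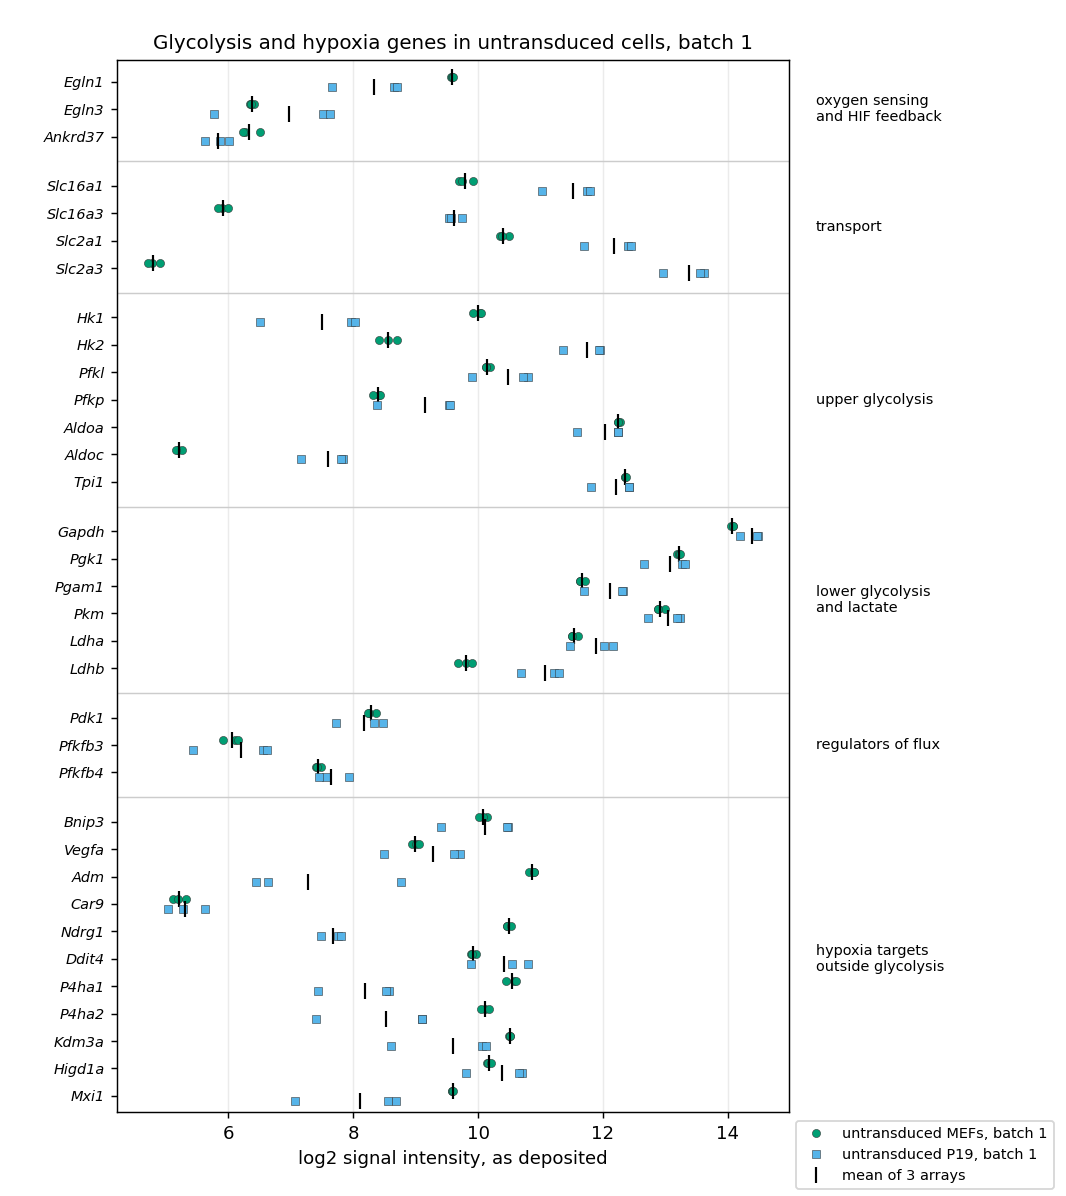
Log2 signal intensity of the 34 measured members in untransduced MEFs (green circles) and untransduced P19 cells (blue squares) of batch 1, 1 symbol per array, with the mean of 3 arrays as a black bar. Slc2a3 lies near 4.8 in MEFs and 13.38 in P19 cells, and Hk1 and Hk2 lie on opposite sides.

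In MEFs with MyoD, 12 of 34 members were called against untransduced MEFs of batch 1, 7 higher and 5 lower, against 25.3% of all genes. The median member difference was -0.04 and that of all genes 0.001. Without the array that stood apart, which is in neither group, 11 were higher and 12 lower, against 40.6% of all genes. The muscle markers averaged 13.39 to 13.48 in MEFs with MyoD and 5.19 to 5.41 in controls, with 5 of 5 higher, and 4 of 5 fibroblast markers were lower. The Gapdh 3′ minus 5′ difference lay between -0.19 and -0.15 in MEFs with MyoD and between -0.29 and -0.25 in controls, without overlap, and its part in the result was not tested. In such bulk samples fewer cells of a type and less RNA per cell cannot be told apart.

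Egln3 had 10.13, 10.24 and 10.22 in MEFs with MyoD, against 6.35, 6.41 and 6.36 in controls. This rise of 3.82 (14.1-fold, 95% interval 3.11 to 4.53, adjusted p = 1.57e-08) was the largest of any member in this comparison, and Egln3 is known to be induced when myoblasts differentiate. Egln1 and Ankrd37 were not called (0.15 and 0.73). Their groups did not overlap, nor did those of other uncalled members, such as Hk1, which was higher, and Adm, Pfkp, P4ha2, Pdk1 and Pfkfb4, which were lower. The share of all genes without overlap was not counted in this comparison. Hk2 had 10.25, 10.27 and 10.17 in MEFs with MyoD, against 8.41, 8.56 and 8.7 in controls (1.67, adjusted p = 2.75e-08). Aldoa, whose product is the main aldolase of muscle, had 13.38, 13.41 and 13.41, against 12.24, 12.27 and 12.24 (1.15, adjusted p = 2.84e-07). In both genes the 3 replicates lay much closer together than the groups. Smaller rises were those of Higd1a (0.9), Ldha (0.56), Gapdh (0.38) and Pkm (0.33), and Pgk1 was at 0.33 with adjusted p = 0.0521.

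Mxi1 had 8.28, 8.23 and 8.36 in MEFs with MyoD, against 9.59, 9.59 and 9.6 in controls, a difference of -1.3 (adjusted p = 0.000434). Pfkfb3 was lower at -0.96 (adjusted p = 0.00453), with values of 4.7 to 5.39 in MEFs with MyoD, and its other probe set differed by -0.2 without a call. Ndrg1 was lower at -0.74, Slc2a1 by -0.49 and Pgam1, the non-muscle phosphoglycerate mutase, by -0.46. Slc2a3 and Slc16a3 stayed near the low levels of MEF controls, at 4.59 to 4.83 and 5.47 to 5.9. The calls of Slc2a1 and Pkm ended in 7 of 31 alternative settings each.

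Other lists of carbohydrate metabolism were counted in the same fit. Of 14 tricarboxylic acid cycle genes 9 were higher in MEFs with MyoD and 0 lower (median 0.6), and 14 were higher without the array that stood apart. They included Idh2 (1), Idh3a (0.98), Sdhd (0.93) and Idh3g (0.87). Of 10 genes of the pyruvate dehydrogenase complex 5 were higher and 1 lower, with Pdhx at 1.08, Pdhb at 1, Dlat at 0.88 and Dld at 0.87. The muscle isozymes Pgam2 and Eno3 were higher by 4.71 and 4.54, Pfkm by 1.21, and Eno2 was lower at -2.04, the 4 called of 13 other glycolytic enzymes. In glycogen metabolism 4 of 10 were higher and 1 lower, with Pygm, the muscle phosphorylase, at 3.56, Gys1, the muscle synthase, at 1.87, Ugp2 at 1.52 and Pygb, the brain phosphorylase, at -2.19. Other hypoxia targets split into 4 higher and 6 lower of 26, with Lox at -2.49, Tfrc, the transferrin receptor, at 1.95, Plin2 at -1.55 and Stc2 at 1.54. Slc2a4 (GLUT4), the insulin-responsive transporter of muscle, rose by 0.68, and of HIF regulators Arnt2 was lower at -1.28 and Hif1an higher by 0.92. In the pentose phosphate pathway Tkt, transketolase, was lower at -2.36, Pgd by -0.77, and Taldo1 was higher by 0.39. The integrated stress list had 3 of 9 higher and 1 lower, and mitotic genes 4 of 7 higher, or 7 of 7 without the array that stood apart.

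In MEFs labelled NeuroD2, 14 of 34 members were called against untransduced MEFs of batch 2, 4 higher and 10 lower, against 12.4% of all genes. The median member difference was -0.22 and that of all genes -0.024. Without the array that stood apart, which is in another batch, 7 were higher and 16 lower, against 27.1% of all genes. The fibroblast markers averaged 13.37 to 13.46 and 13.41 to 13.45 in controls, 1 of 5 neuron markers was higher (range of the mean 5.5 to 5.59, against 4.95 to 5.15), and 0 of 5 muscle markers were called.

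Of 7 measured members of the upper steps of glycolysis 3 were lower in MEFs labelled NeuroD2, of 6 of the lower steps 3 were lower, and 0 were higher in either. Hk2 had 7.06, 6.92 and 7.02 in MEFs labelled NeuroD2, against 8.65, 8.23 and 8.2 in controls (-1.36, 2.57-fold, adjusted p = 1.42e-06). Aldoa had 11.51, 11.51 and 11.47, against 12.56, 12.49 and 12.45 (-1, adjusted p = 5e-06). Pgk1 had 12.31, 12.41 and 12.34, against 13.25, 13.2 and 13.12 (-0.83, adjusted p = 3.79e-05). None of these groups overlapped. Tpi1, Pgam1 and Gapdh were lower at -0.62, -0.6 and -0.52 (adjusted p = 0.00244, 0.00314 and 0.000148), while Hk1 (0.22), Aldoc (0.14), Pfkl (-0.27), Pfkp (-0.19), Pkm (0.24), Ldha (-0.03) and Ldhb (-0.66, adjusted p = 0.0957) were not called. The Gapdh 3′ minus 5′ difference lay between -0.42 and -0.33 in MEFs labelled NeuroD2 and between -0.34 and -0.3 in controls. That of Actb lay between 0.14 and 0.2, against 0.21 and 0.22 in controls, and the part of either in the result was not tested.

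The transporters split. Slc2a1 had 9.6, 9.59 and 9.53 in MEFs labelled NeuroD2, against 10.85, 10.66 and 10.76 in controls (-1.19, adjusted p = 3.01e-05), whereas Slc16a1 had 11.53, 11.54 and 11.42, against 10.33, 10.12 and 10.12 (1.31, adjusted p = 1.47e-05). Hypoxia targets outside glycolysis split as well, with 3 lower and 2 higher of 11. Vegfa had 7.72, 7.84 and 7.91, against 9.24, 9.19 and 9.02 (-1.33, adjusted p = 0.000307), Ddit4 was lower at -1.01 and Bnip3 by -0.92. Ndrg1 had 11.51, 11.53 and 11.54, against 10.77, 10.61 and 10.59 (0.87, adjusted p = 1.37e-05), and P4ha1 was higher by 0.69. Egln3 had 7.86, 7.93 and 8.06, against 7.06, 6.84 and 6.57 (1.13, adjusted p = 0.0319), and its call ended in 6 of 31 alternative settings.

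Among other lists in MEFs labelled NeuroD2, the tricarboxylic acid cycle had 0 of 14 called and the pyruvate dehydrogenase list only Pdk2, higher by 2.29. Other hypoxia targets had 4 higher and 7 lower of 26, with Stc2 at 2.66, Bhlhe40 at -2.47, Angptl4, a secreted regulator of lipoprotein lipase, at -2.27 and Tfrc at -1.29. Of the HIF regulators Epas1 was higher by 1.67, Hif3a by 0.77, and Hif1a, the main HIF alpha subunit, was lower at -0.76. Gluconeogenesis had 2 of 7 lower, Pcx (-1.28) and Pck2 (-1.02), and the integrated stress list 3 of 9 lower, Trib3 (-1.52), Psat1 (-0.77) and Asns (-0.68). Of 13 other glycolytic enzymes Eno2 (-1.72) and Tigar (-0.7) were lower and Pfkm higher (0.8), and glycogen metabolism had 2 higher and 2 lower of 10, led by Pygb (-1.03). Bsg, the chaperone of the lactate carriers, was the 1 of 8 transport genes called (0.55).

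**Figure D3:**
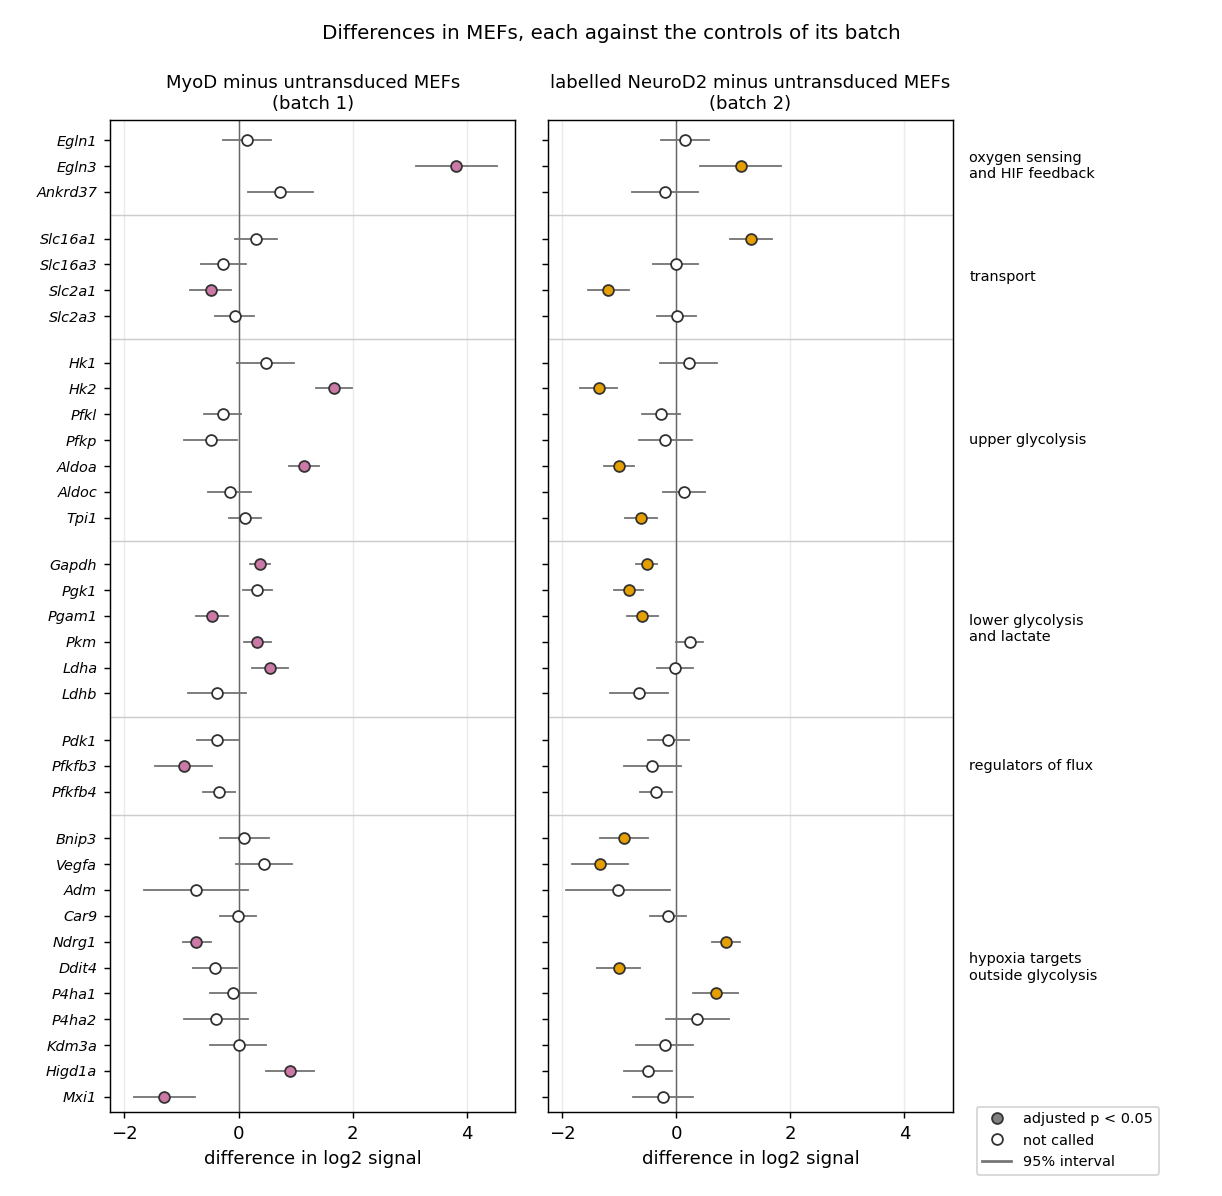
Difference in log2 signal of the 34 members in MEFs with MyoD (left) and MEFs labelled NeuroD2 (right), each against untransduced MEFs of its own batch, with 95% intervals from the limma fit and filled circles for adjusted p < 0.05. Hk2, Aldoa and Gapdh lie right of 0 in the left panel and left of 0 in the right panel, and Ndrg1 lies the other way.

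Set side by side, 7 of 34 members were called in both MEF comparisons, against 7.1% of all genes. Egln3 was higher in both, Slc2a1 and Pgam1 were lower in both, Hk2, Aldoa and Gapdh were higher with MyoD and lower in MEFs labelled NeuroD2, and Ndrg1 was lower with MyoD and higher in MEFs labelled NeuroD2. The difference between these effects was tested as a contrast of contrasts and was called in 14 members, 10 higher for MyoD and 4 lower, against 18.9% of all genes (12 and 5, against 35.7%, without the array that stood apart). It was 3.03 for Hk2 (adjusted p = 1.06e-09), 2.16 for Aldoa (7.74e-09), 2.69 for Egln3 (0.000276) and 1.17 for Pgk1 (3.1e-05), and for Ndrg1 -1.61 (2.43e-07). Each effect was taken within its batch, and the factors, media and batches cannot be told apart.

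**Figure D4:**
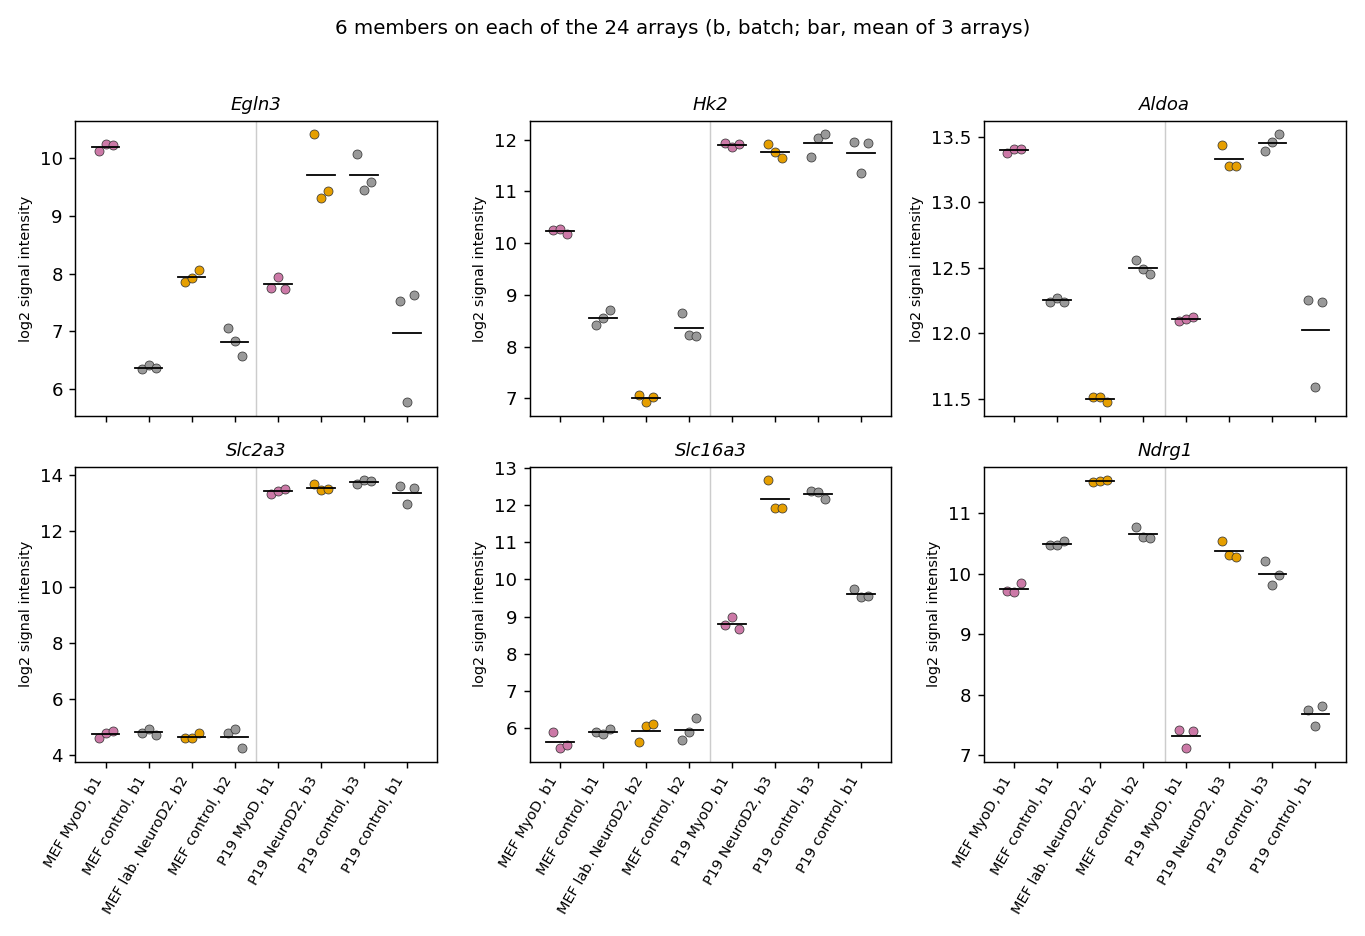
Log2 signal intensity of Egln3, Hk2, Aldoa, Slc2a3, Slc16a3 and Ndrg1 on each of the 24 arrays, 3 points per group with the mean as a bar, MEF groups left of the line and P19 groups right of it. Egln3 reads 10.19 on average in MEFs with MyoD and 6.37 in their controls, and in P19 cells the batch separates Slc16a3 and Ndrg1 more than either factor.

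In P19 cells with MyoD few members were called: 1 higher and 1 lower of 34, against 2.71% of all genes. Slc16a3 had 8.78, 9 and 8.66 in P19 cells with MyoD, against 9.74, 9.53 and 9.56 in untransduced P19 cells of batch 1 (-0.79, adjusted p = 0.0242). Kdm3a had 10.42, 10.44 and 10.57, against 10.06, 8.61 and 10.12 (0.88, adjusted p = 0.0498), and was at 0.38 without the array that gave 8.61, and its call ended in 23 of 33 alternative settings, over which its adjusted p ranged from 0.00204 to 0.949. Without that array 1 member was higher and 6 lower, against 3.95% of all genes, with Pdk1 (-0.72), Ldha (-0.58), P4ha1 (-0.51), Ndrg1 (-0.47) and Tpi1 (-0.37) called beside Slc16a3. After a second quantile normalization 1 was higher and 5 lower, against 4.2%. Against untransduced P19 cells of batch 3, 0 members were higher in P19 cells with MyoD and 18 lower, against 11.4% of all genes. Hk2 and Aldoa, which rose in MEFs with MyoD, differed by 0.15 (95% interval -0.18 to 0.47) and 0.08 (-0.18 to 0.34) in P19 cells. Outside the list Eno3 was higher by 0.91 and Rora by 0.51, and the other pathway lists had 0 calls in limma at an adjusted p under 0.05. Without that array 0 of 26 other hypoxia targets were higher and 2 lower. These counts share the P19 controls of batch 1 with the batch and cell-type comparisons.

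In P19 cells with NeuroD2 the list barely moved against untransduced P19 cells of batch 3, with 1 of 34 members higher and 0 lower, against 8.34% of all genes, while 5 of 5 neuron markers were higher. Car9 had 5.74, 6.21 and 6.01 in P19 cells with NeuroD2, against 5.23, 5.07 and 4.96 in controls (0.9, adjusted p = 0.000338). These are low signals, and the groups did not overlap. The median member difference was 0 on the log2 scale, and Gapdh, Pkm, Pgk1, Pgam1, Tpi1, Egln3, Ankrd37 and Bnip3 lay within 0.04 of their controls. Without the array that stood apart, which is in another batch, 7 were higher and 5 lower, against 22.1% of all genes, with Mxi1 (0.52), Hk1 (0.52), Ndrg1 (0.37) and Pfkfb3 (0.64) among the higher and Pfkp (-0.61) and Pdk1 (-0.47) among the lower. Of the other lists Bpgm (0.77) and Fbp1 (1.48) were higher and Arnt (-0.79), Gyg (-0.91) and Hmox1 (-0.77) lower. After a second quantile normalization 4 members were higher and 3 lower, against 12.8%.

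The effects in MEFs and in P19 cells differed by test for several members. For MyoD, cell type cannot be told apart from the medium change and harvest time of the MEFs. For NeuroD2, cell type cannot be told apart from batch, and no Neurod2 probe set rose in the MEFs. For MyoD, the effect in MEFs minus that in P19 cells was called in 9 members, 4 higher and 5 lower, against 21.1% of all genes, and in 11 higher and 4 lower, against 30.6%, without the array that stood apart (9 and 4, against 25.8%, after a second quantile normalization). The higher ones were Egln3 (2.98), Hk2 (1.52), Aldoa (1.07) and Ldha (0.93). For NeuroD2 it was called in 2 higher and 10 lower, against 10.2%, and in 5 higher and 17 lower, against 24.8%, without that array. Slc16a1 (1.74) and P4ha1 (1.01) were higher, and Ddit4 (-1.5), Slc2a1 (-1.22) and Hk2 (-1.2) the most negative. In P19 cells the MyoD effect minus the NeuroD2 effect was called in 1 member higher, Slc16a1 (1.02), and 2 lower, Car9 (-0.86) and Ndrg1 (-0.75), against 5.53% of all genes. Without that array 1 was higher and 6 lower, against 11%, and after a second quantile normalization 1 and 4, against 7.49%.

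In untransduced MEFs few members were called between batches. In batch 2 against batch 1, 1 of 34 members was higher and 0 lower, against 2.28% of all genes, and the median difference was 0.11. Pfkl had 10.83, 10.8 and 10.73 in batch 2, against 10.19, 10.13 and 10.12 in batch 1 (0.63, adjusted p = 0.0364), and its call ended in 12 of 31 alternative settings. Egln3, Slc16a3, Ankrd37 and Ndrg1, with the largest differences between P19 batches, differed by 0.45, 0.04, 0.55 and 0.17 with no call. Of these only the groups of Slc16a3 overlapped, and the share of all genes without overlap was not counted between MEF batches. Whether the 2 batch differences differ was not tested. Without the P19 array that stood apart 7 were higher and 2 lower, against 16.3% of all genes. Fitted on the arrays compared alone, 10 were higher and 2 lower, against 17.3% of all genes. All 7 mitotic genes were lower in MEFs of batch 2 (median -1.31), and their part in the result was not tested.

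Other probe sets of called members moved the same way or were not called. In the comparison of P19 batches 23 of 28 were called the same way and 5 were not called, with MyoD in MEFs 16 of 17 and 1, in MEFs labelled NeuroD2 19 of 20 and 1, and between cell types 21 of 23 and 2. In these comparisons 0 were called the opposite way. Differences understate the change where a signal is near the lower end of the array, as for Slc2a3 and Aldoc in MEFs and Car9 in all groups.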

How the data were processed

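The deposited table holds log2 signal intensities of 24 Affymetrix arrays, 1 column per array, normalized by the authors before they were deposited; quartiles of 23 columns are nearly equal, but the sources used here do not name the normalization method. Only limma is named per the submitters' processing notes. Total RNA was labelled by a one-cycle protocol, per the labels' protocols. Of 45101 probe sets, 9160 without a symbol, 932 with several and 61 Affymetrix controls were set aside. The other 34948 gave 18194 genes, each read from its brightest probe set on average, and 9011 genes had more than 1. Gapdh was read from the kept control probe sets, and 0 further sample columns were left unused.

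Groups come from sample titles. A mean per group was fitted over the 24 arrays with lmFit and eBayes (limma 3.58.1, R 4.3.3; 16 residual and 3.89 prior degrees of freedom), with two-sided p-values adjusted by Benjamini-Hochberg over 18194 genes and a threshold of 0.05. The fit was tested on simulated data. Members and lists were chosen with earlier results of these data known. All members are named, and of other lists up to 4 called genes with the largest difference per comparison. Alternatives were a second normalization, equal medians, no dim genes, averaged probe sets, no _x_at or _s_at probe sets, only the arrays compared, a replicate block, other controls and leaving out each array. The fit on the arrays compared less the odd array was added after seeing the data. Symbols come from the platform annotation, which can be old.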

Additional observations from a re-analysis of the deposited data

Results flagged for a closer look

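Effects that differed between cell types or between factors by the limma contrast of contrasts are listed here, 38 in all, each with an adjusted p under 0.05. They share control arrays, so they are not independent of each other. Cell type cannot be told apart from medium and harvest time for MyoD, or from batch for NeuroD2. The factors cannot be told apart from batch either.

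The MyoD effect in MEFs minus that in P19 cells was positive for Egln3 (2.98), Hk2 (1.52), Aldoa (1.07) and Ldha (0.93). It was negative for Mxi1 (-1.78), Pfkfb3 (-1.37), Ldhb (-1.09), Slc2a1 (-0.82) and Ddit4 (-0.74). That of Ddit4 was -0.48 and not called (adjusted p = 0.0783) without the P19 array that stood apart. The call ended in 24 of 32 alternative settings for Ddit4, 8 of 32 for Ldhb and 1 of 32 for Slc2a1.

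The NeuroD2 effect in MEFs labelled NeuroD2 minus that in P19 cells was positive for Slc16a1 (1.74) and P4ha1 (1.01). It was negative for Ddit4 (-1.5), Slc2a1 (-1.22), Hk2 (-1.2), Vegfa (-1.07), Car9 (-1.05), Aldoa (-0.88), Pgk1 (-0.8), Tpi1 (-0.65), Pfkfb4 (-0.63) and Gapdh (-0.52). The call ended in 21 of 31 alternative settings for Vegfa, 10 of 31 for Pfkfb4 and 9 of 31 for Tpi1.

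In MEFs the MyoD effect minus that in MEFs labelled NeuroD2 was positive for Hk2 (3.03), Egln3 (2.69), Aldoa (2.16), Vegfa (1.78), Higd1a (1.4), Pgk1 (1.17), Bnip3 (1.02), Gapdh (0.9), Tpi1 (0.73) and Slc2a1 (0.69). It was negative for Ndrg1 (-1.61), Mxi1 (-1.07), Slc16a1 (-1) and P4ha1 (-0.79). The call ended in 22 of 31 alternative settings for P4ha1, 20 of 31 for Slc2a1 and 16 of 31 for Mxi1.

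In P19 cells the MyoD effect minus the NeuroD2 effect was positive for Slc16a1 (1.02) and negative for Car9 (-0.86) and Ndrg1 (-0.75). The call ended in 4 of 32 alternative settings for Slc16a1, 4 of 31 for Car9 and 3 of 32 for Ndrg1.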

How the results depend on the processing

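Counts of members called moved most with the arrays that enter the fit, and the causes were not tested. In P19 cells with MyoD the reported 1 higher became 0 with equal medians, 0 with only the arrays compared, 3 less the odd array and 0 against P19 controls of batch 3 (0 to 9 leaving out 1 array), and the 1 lower became 5 after quantile normalization, 0, 7 and 18 (0 to 6). In MEFs with MyoD 7 higher became 13 with only the arrays compared (6 to 11), and 5 lower became 8 after quantile normalization and 13 (4 to 12). In P19 cells with NeuroD2 1 higher became 4 after quantile normalization and 2 with only the arrays compared (1 to 7), and 0 lower became 3, or 2 with averaged probe sets (0 to 5). In MEFs labelled NeuroD2 4 higher became 7 (2 to 7) and 10 lower became 17 (10 to 16) with only the arrays compared. Between MEFs and P19 cells 11 lower became 17 after quantile normalization, 7 with only the arrays compared, 19 less the odd array and 23 with the other controls (10 to 19). Between P19 batches 24 higher became 1 with only the arrays compared and 13 less the odd array (22 to 26). Between MEF batches 1 higher became 5, 0 with equal medians, 2 without dim genes, 3 with averaged probe sets and 10 with only the arrays compared (0 to 7), and 0 lower became 2 there (0 to 2). For the MyoD effect in MEFs minus P19 cells 4 higher became 9 after quantile normalization and 17 less the odd array (4 to 11), and 5 lower became 3 with only the arrays compared (3 to 8). For NeuroD2 2 higher became 4 there (2 to 5), and 10 lower ranged over 7 to 17. For MyoD minus NeuroD2 in P19 cells 1 higher became 0 in both fits on the arrays compared (0 to 2), and 2 lower became 4 after quantile normalization, 1 with equal medians, without dim genes, without _x_at or _s_at probe sets or less the odd array, and 0 with only the arrays compared (1 to 6). In MEFs 10 higher became 17 with only the arrays compared, and 4 lower became 2 with equal medians (2 to 5). Shares of all genes called moved too. With only the arrays compared they were 0.275% in P19 cells with MyoD, 50.1% in MEFs with MyoD, 6.55% in P19 cells with NeuroD2, 29.1% in MEFs labelled NeuroD2, 27.9% between cell types, 0.0055% between P19 batches and 17.3% between MEF batches, and for differences of effects 13.9% (MyoD), 16.6% (NeuroD2), 1.76% (P19) and 43.3% (MEFs). Less the odd array they were 8.59% in P19 cells with MyoD, 61.9% between cell types, 1.18% between P19 batches, 41.8% for the MyoD difference and 5.7% for the P19 difference. After quantile normalization they were 31.4% in MEFs with MyoD and 6.66% between MEF batches. With equal medians they were 2.36% in P19 cells with MyoD, 1.91% between MEF batches, and for differences 5.04% (P19) and 16.7% (MEFs). Without dim genes they were 3.77% between MEF batches and 8.56% for the P19 difference. With averaged probe sets they were 9.47% in P19 cells with NeuroD2 and 2.69% between MEF batches. Without _x_at or _s_at probe sets the P19 difference had 5.74%. Of the fits leaving out 1 array, shares are given only for the odd array.

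Over all genes, correlations of same-numbered deviations lay between -0.19 and 0.34. In batch 3, replicate 1 was the highest in both P19 groups for some members and not for others. Ankrd37 had 9.12, 7.99 and 8.07 in untransduced cells and 9.16, 7.95 and 8.01 with NeuroD2. Hk2 had 11.66, 12.03 and 12.1 in untransduced cells and 11.91, 11.76 and 11.64 with NeuroD2. Pairing by number is therefore not settled for the members. With the replicate block, 1 member was higher in P19 cells with NeuroD2 as reported and 2 with the block, 1 and 0 between MEF batches, and 4 and 2 were lower for MyoD minus NeuroD2 in MEFs. The block fit called 7.61%, 1.98% and 17.7% of all genes in these comparisons, in that order. In 4 other comparisons counts moved by 1, and with MyoD in P19 cells and in MEFs 1 call ended and 1 began in each.

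Of the 34 members, 22 changed sign in P19 cells with MyoD against P19 controls of batch 3, 14 without the odd array and 11 after quantile normalization, with a call on either side in 12, 0 and 0. Between cell types 7 did with the other controls, 4 without the odd array and 5 after quantile normalization, with a call in 7, 0 and 0. For MyoD minus NeuroD2 in P19 cells 10 did without the odd array, with 0 calls. Values follow where the reported or the alternative value was called, and in 0 cases were both. Against P19 controls of batch 3, P19 cells with MyoD were at -1.14 for Egln1, -1.89 for Egln3, -2.55 for Ankrd37, -2.05 for Pfkl, -1.35 for Aldoa, -1.81 for Aldoc, -0.74 for Pgk1, -0.71 for Pkm, -1.14 for Pfkfb3, -1.47 for Bnip3, -0.07 for Kdm3a and -0.89 for Higd1a. MEFs of batch 2 minus P19 cells of batch 3 gave -1.5 for Ankrd37, -0.96 for Aldoa, -0.96 for Tpi1, -0.65 for Pgk1, -1.68 for Pdk1, 0.38 for Car9 and -0.17 for Kdm3a. The MyoD effect in MEFs minus P19 cells was -0.44 to 0.32 for Hk1 when 1 array was left out, the highest without the odd array and again 0.32 in the fit on the arrays compared less it, and 0.25 for Bnip3 in the fit on the arrays compared less that array. Signals near the lower end of an array limit what differences in Slc2a3, Aldoc and Car9 can show.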
